A study of Mus musculus with 4 samples.

Results

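The Toll-like receptors (TLRs), their adaptors and kinases, the NF-kB transcription factors and the inhibitors of that pathway were followed as 52 named genes in CD45+ cells of the epididymal white adipose tissue (eWAT). The members were taken by gene name from a list ordered by layer of the pathway, and all 52 were found among the 35869 genes of the files. RNA-seq was performed on 2 samples from mice on a normal diet (ND) and 2 from mice on a high-fat diet (HFD). The mice were male wild-type C57BL/6, the diets began at 8 weeks of age and lasted 12 weeks, and no gene was deleted or added in either group. Immune cells were taken from the stromal vascular fraction, the non-adipocyte cells freed by collagenase, with CD45 microbeads. CD45 is a surface protein of leukocytes, so the beads enrich immune cells without separating their types. The number of mice behind each sample is not given in the sources used here, and p-values therefore measure only the spread between these samples. Values are TPM, read counts per length of gene rescaled to the same total in every sample, so levels can be compared between genes within a sample.

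TLRs recognize parts of microbes and of damaged cells, some at the cell surface and some in endosomes. Most of them signal through the adaptor MyD88 to IRAK kinases, TRAF6 and TAK1, while TLR3 and internalized TLR4 use TRIF. Both routes reach the IKK complex, which marks the IkB proteins for destruction and so lets NF-kB dimers enter the nucleus. NF-kB in turn raises the transcription of several of its own inhibitors. In adipose tissue, macrophages are known as a major site of TLR expression, and TLR4 has been studied as a receptor that links fatty acids to inflammation.

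The samples held approximately 37500000 and 44400000 reads for ND, and 46800000 and 41000000 for HFD, as estimated from the steps between low TPM values. Ptprc, the gene of CD45, lay between 53.7 and 59.4 TPM in the 4 samples. The 4 leukocyte markers, Ptprc among them, summed to 1633 and 1625.4 TPM in ND against 1433.5 and 1487.5 TPM in HFD. Of these 4, 1 was called lower, Coro1a, at 298 and 293.7 TPM in ND against 169 and 192.4 TPM in HFD. Marker genes of several cell types differed between the diets. The summed level of 6 lipid-associated macrophage markers, among them Trem2 and Gpnmb, was 1025 and 1073 TPM in ND against 7793 and 8165 TPM in HFD, and all 6 were called higher. Markers of resident macrophages summed to 3759 and 3835 TPM in ND against 1295 and 1079 TPM in HFD, with all 6 called lower. Genes of cells without CD45 were present, with 6 fibroblast markers at 522 and 561 TPM in ND against 2837 and 5686 TPM in HFD, and 6 spermatid markers whose sum in HFD replicate 1 was 3.25 times that in HFD replicate 2. Markers of the epididymal epithelium ran the other way, at 141 and 152 TPM in ND against 13.6 and 27.6 TPM in HFD, with 4 of 6 called lower and none at 0 in all samples. In bulk RNA, fewer cells of a type and less RNA per cell cannot be told apart, which applies to the marker sums and to each value below.

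**Figure D1:**
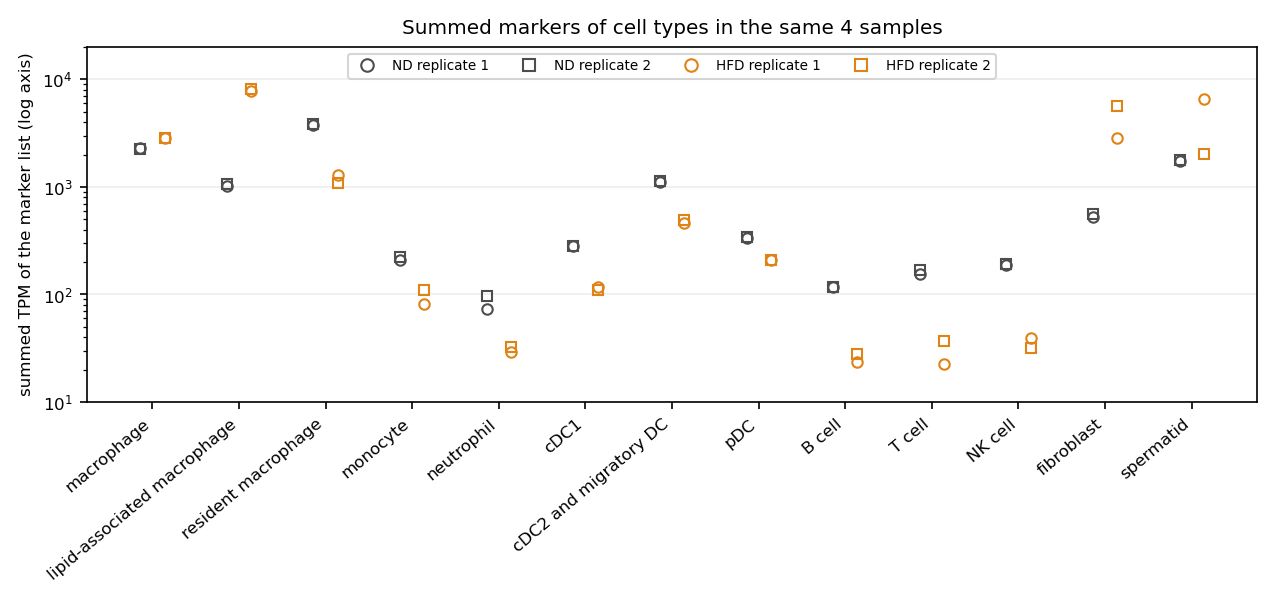
Summed TPM (log axis) of marker genes of 13 cell types in each of the 4 samples, with circles for replicate 1 and squares for replicate 2 of ND (grey) and HFD (orange). Lipid-associated macrophage markers were at 7793 and 8165 TPM in HFD against 1025 and 1073 TPM in ND, while B cell, T cell and NK cell markers were lower in both HFD samples.

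Within a diet the members agreed closely between samples. The larger value was a median of 1.04 times the smaller in ND and 1.07 times in HFD, and the largest gap was 1.24-fold in ND. In HFD it was 1.40-fold among all members other than Lbp, whose HFD values differed 2.33-fold. Levels covered a wide range, since 37 members had at least 10 TPM in every sample, 11 had a mean of at least 100 TPM and the lowest mean was 1.45 TPM. All 52 members passed the filter on low values, which asked 2 or more samples to reach a TPM of 1, and were tested with limma on log2(TPM + 1). Tlr5 and Tlr12 passed only through their ND values and so had to be higher in ND. The log2(TPM + 1) scale makes the fold changes of low genes smaller than the ratio of their TPM values.

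A gene was called when its adjusted p was under 0.05 over all 16849 genes tested and its change was at least 1.5-fold. By this rule 3 of 52 members (5.77%) were higher in HFD, where 8.08% of all genes tested were called higher. A further 7 members (13.5%) were lower, where 10.3% of all genes were called lower. These 7 include Tlr5 and Tlr12, which could only be lower once they passed the filter. The counts of lower members and of called TLR genes below hold them too. The 10 called members make 19.2% of the list, near the 18.4% of all genes that were called, so their number is no feature of the list. Without the limit on fold change, 4 members were higher (7.69%, against 13.2% of all genes) and 14 lower (26.9%, against 14.1%). The median log2 fold change was -0.12 over the members and 0.06 over all genes tested, and the median size of the change, regardless of sign, was 0.23 and 0.32. The called members were mostly receptors. Of the 12 TLR genes 7 were called, in both directions, and the other 3 were the co-receptor Ly96, the adaptor Ticam2 and the nuclear IkB protein Nfkbiz. Of the 25 genes in the IRAK, TRAF, TAK1/TBK1/IRF, NOD, IKK and NF-kB subunit layers, 0 were called by limma, although 5 of them had an adjusted p under 0.05 and 9 an unadjusted p under 0.05. That 5 was not stable, since it was 1 (Rela) with median-ratio scaling, 2 after quantile normalization and 3 with no filter. It was 0 with the replicate number added to the model, and 7 after rescaling without the 50 most abundant genes.

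**Figure D2:**
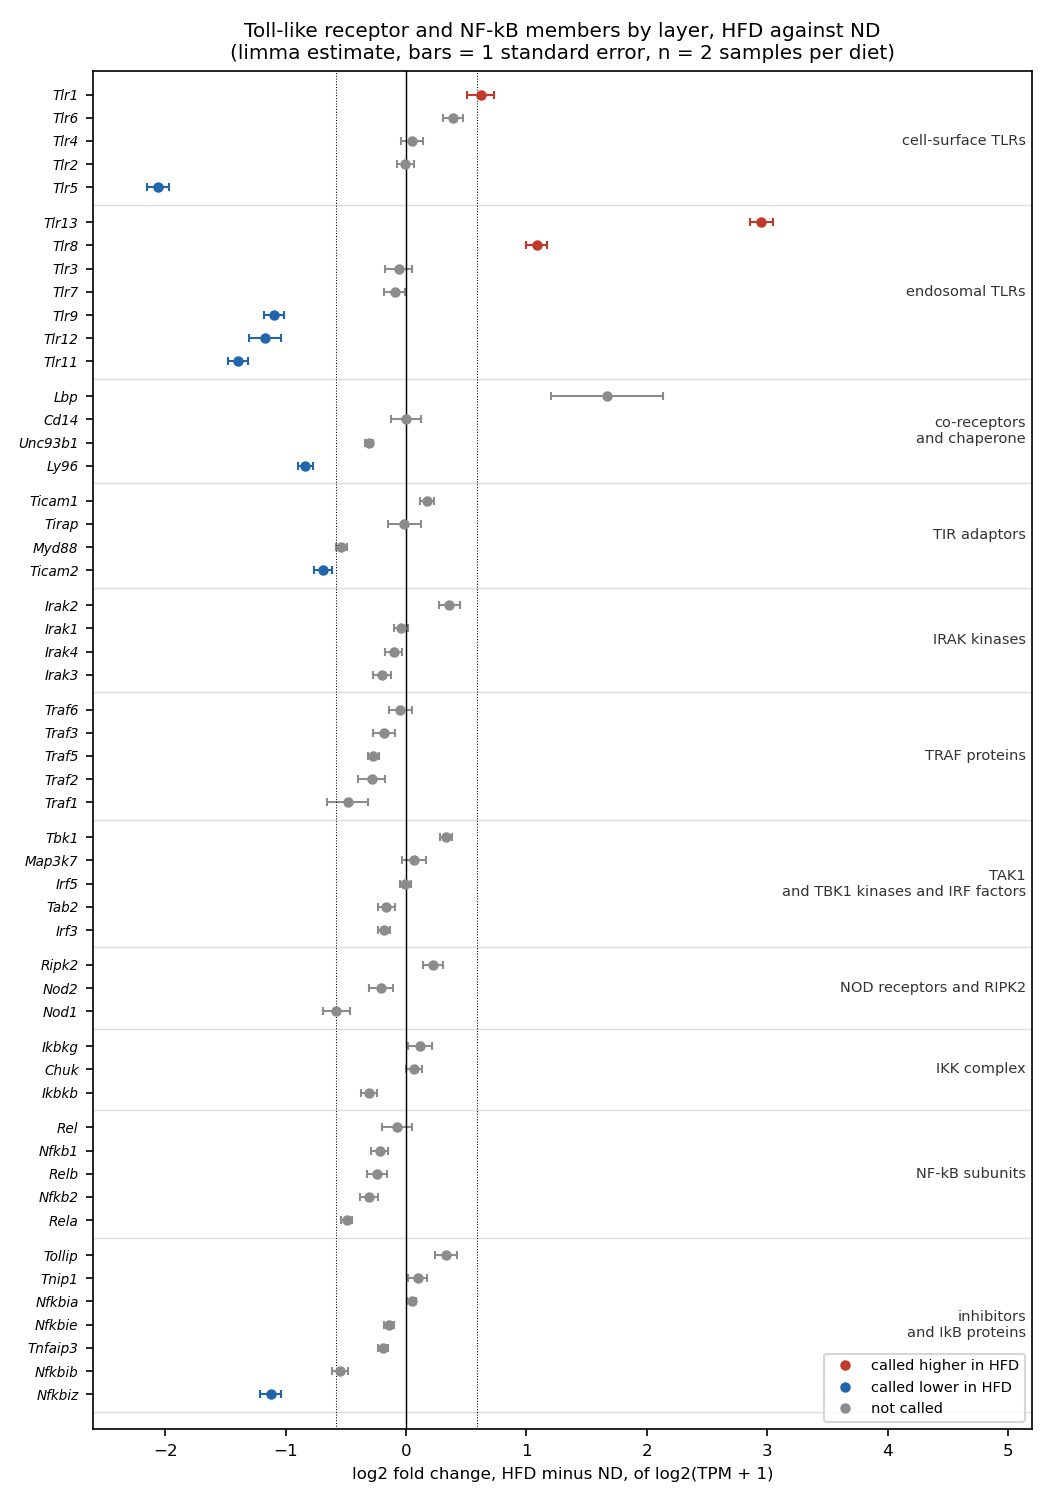
Log2 fold change of each of the 52 members between HFD and ND on the log2(TPM + 1) scale, by layer of the pathway, with bars of 1 standard error from limma (n = 2 samples per diet) and dotted lines at 1.5-fold. The points farthest from 0 are Tlr13 at 2.95 and Tlr5 at -2.06, and the kinase, IKK and NF-kB subunit layers lie between the lines.

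Among the 5 cell-surface TLRs, 1 was called higher, 1 lower and 3 were not called. Tlr5, the receptor for bacterial flagellin (chr1:182954788-182976044, plus strand), had 6.8 and 7.1 TPM in ND against 0.9 TPM in each HFD sample. The groups were far apart, with a ratio of the means of 7.72, a log2 fold change of -2.06 ± 0.09 (SE) and an adjusted p of 0.00516 in limma. Since Tlr5 reached the filter through ND alone, its direction was set by the filter, and with no filter its adjusted p was 0.0156 in limma. Approximately 464 and 561 reads stood behind the ND values of Tlr5, against 69.8 and 60.6 in HFD. Tlr1, which pairs with TLR2 to bind bacterial lipopeptides (chr5:64924679-64933563, minus strand), had 4.9 and 5.4 TPM in ND against 9.0 and 7.9 TPM in HFD. Both HFD values lay above both ND values, and its log2 fold change was 0.62 ± 0.11 (SE, limma adjusted p = 0.0357), close to the fold limit. The call of Tlr1 was lost without HFD replicate 1, with a log2 fold change of 0.53 and an adjusted p of 0.07465 in limma, and without either ND sample, as for the other members. It was also lost with no filter (adjusted p = 0.0613 in limma), and the change of Tlr1 was under the fold limit with 5 added to the TPM (0.41), after quantile normalization (0.57) and after rescaling without the 50 most abundant genes (0.58). Tlr6, the other partner of TLR2, had 3.5 TPM in both ND samples and 5.0 and 4.8 TPM in HFD, with an adjusted p of 0.0540 in limma.

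Tlr2 and Tlr4, the surface receptors with the highest levels, were not called. The proteins of Tlr4, Myd88, Traf3 and Rela were also followed by immunoblotting of eWAT, which was not analysed here. Tlr2 had 135.1 and 142.2 TPM in ND against 131.3 and 145.0 TPM in HFD, so that the HFD values enclosed the ND values. Tlr4, the receptor for lipopolysaccharide (chr4:66827584-66930284, plus strand), had 30.9 and 35 TPM in ND against 35.3 and 33.0 TPM in HFD. The diets overlapped, and its log2 fold change of 0.05 ± 0.09 (SE, limma adjusted p = 0.704) was smaller than its standard error. The sign of this value was not stable, since quantile normalization gave -0.07.

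Endosomal TLRs, which sense nucleic acids and, for TLR11 and TLR12, the profilin of protozoa, moved in both directions. Of the 7 genes, 2 were called higher and 3 lower. Tlr13, a mouse receptor for bacterial ribosomal RNA (chrX:106143204-106160493, plus strand), had 25.7 and 30 TPM in ND and rose to 215.4 and 228.0 TPM in HFD. The ratio of the means was 7.96 and the log2 fold change 2.95 ± 0.10 (SE, limma adjusted p = 0.00449), the largest increase among the members. The ND values rested on approximately 1580 and 2130 reads and the HFD values on 15000 and 13800. Tlr8, a relative of the RNA receptor TLR7 (chrX:167242696-167264329, minus strand), had 17.4 and 19.4 TPM in ND against 41.6 and 38.6 TPM in HFD. Its HFD values were 2.18 times the ND values by the means, with a log2 fold change of 1.08 ± 0.09 (SE) and an adjusted p of 0.00971 in limma. The neighboring gene Tlr7 (chrX:167304929-167330558) had 13.1 and 14.3 TPM in ND against 13.2 and 12.3 TPM in HFD, and the diets overlapped. Both increases ran alongside the lipid-associated macrophage markers, whose levels are given above, and the part of those cells in the result was not tested.

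The 3 endosomal receptors called lower were Tlr9, Tlr11 and Tlr12. Tlr11 (chr14:50357914-50363663, plus strand) had 8.8 and 8.7 TPM in ND against 2.7 TPM in both HFD samples, with a log2 fold change of -1.40 ± 0.08 (SE) and an adjusted p of 0.0064 in limma. Tlr12 (chr4:128615443-128618619, minus strand) had 2.4 and 2.8 TPM in ND against 0.7 and 0.5 TPM in HFD, with a log2 fold change of -1.17 ± 0.13 (SE) and an adjusted p of 0.0168 in limma. Tlr12 too reached the filter through ND alone, and with no filter its adjusted p was 0.0359 in limma. Tlr12 rested on few reads, approximately 109 and 147 in ND and 36.0 and 22.3 in HFD, and with 5 in place of 1 added to the TPM its log2 fold change of -0.44 was under the fold limit. Tlr9, the receptor for unmethylated CpG DNA (chr9:106222598-106226883, plus strand), had 44.4 and 45.9 TPM in ND against 21.8 and 19.4 TPM in HFD, a log2 fold change of -1.10. Each of these genes had both HFD values well below both ND values. Tlr3, the receptor for double-stranded RNA, had 2.3 and 2.7 TPM in ND against 2.3 and 2.4 TPM in HFD, which overlap.

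B cells and plasmacytoid dendritic cells are known for Tlr9, and the summed markers of each were lower in HFD too. The 6 B cell markers summed to 118 and 117 TPM in ND against 23.8 and 27.9 TPM in HFD, with all 6 called lower and none at 0 in all samples. The 6 plasmacytoid dendritic cell markers summed to 335 and 345 TPM in ND against 207 and 209 TPM in HFD, most of it Bst2. Of the 4 tested, 2 were called lower, Bst2 and Siglech, with Siglech at 6.2 and 7.3 TPM in ND against 0.4 and 0.3 TPM in HFD. Tcf4, at 3 and 3.3 TPM in ND against 2.9 TPM in each HFD sample, was not called. Neither was Cox6a2, at 8.1 and 6.7 TPM in ND against 6.5 and 7.6 TPM in HFD. Cross-presenting dendritic cells (cDC1) are known for Tlr11 and Tlr12. Their 6 markers summed to 284 and 282 TPM in ND against 118 and 110 TPM in HFD, most of it Batf3, and 1 was called higher and 1 lower. Xcr1, a defining marker of cDC1, had 9.0 and 8.9 TPM in ND against 3.9 and 5.9 TPM in HFD and was not called. Monocyte markers summed to 209 and 223 TPM in ND against 81.8 and 110 TPM in HFD, with 3 of 6 called lower, and neutrophil markers to 72.5 and 95.8 TPM in ND against 29.4 and 32.8 TPM in HFD, with 5 of 6 called lower. Markers of cDC2 and migratory dendritic cells summed to 1121 and 1139 TPM in ND against 460 and 490 TPM in HFD, with 3 of 6 called lower. Most of this sum was Clec10a and Cd209a. Fscn1 of the same list, at 79 and 72.5 TPM in ND against 78.7 and 102.8 TPM in HFD, was not called. The part of these cells, and of the epididymal epithelium named above, in the lower values of Tlr5, Tlr9, Tlr11 and Tlr12 was not tested.

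**Figure D3:**
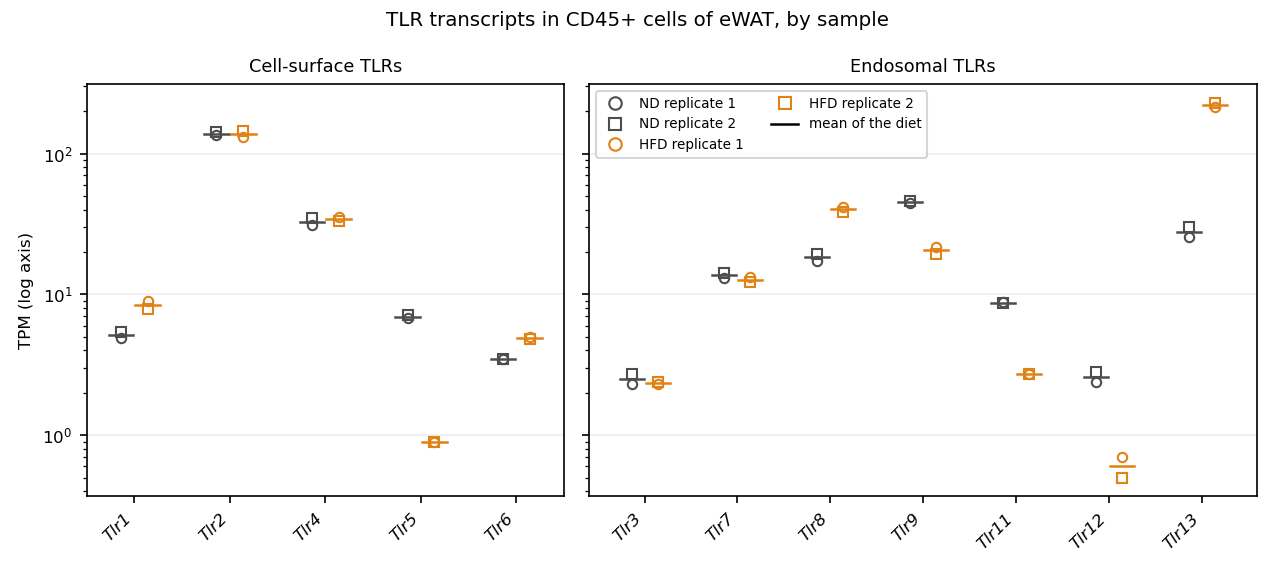
TPM (log axis) of the 12 TLR genes in each sample, with circles for replicate 1, squares for replicate 2 and short lines for the mean of each diet. Tlr13 stands at 215.4 and 228.0 TPM in HFD, above Tlr2, and Tlr5 at 0.9 TPM in both HFD samples, while Tlr2, Tlr3, Tlr4 and Tlr7 overlap between the diets.

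The order of the receptors therefore differed between the diets. In ND, Tlr2 had the highest level, at 45.8% and 44.9% of the summed TPM of the 12 TLR genes, followed by Tlr9 at 15.04% and 14.48%. Tlr4 and Tlr13 came next, and their ND values of 30.9 and 35 TPM and of 25.7 and 30 TPM lay close to each other. In HFD, Tlr13 had the highest level, at 44.95% and 46.01% of the sum, followed by Tlr2 at 27.4% and 29.3%, Tlr8 at 8.68% and 7.79% and Tlr4 at 7.37% and 6.66%. Tlr9 made 4.55% and 3.92% of the sum in HFD. The sum was 295 and 317 TPM in ND against 479 and 496 TPM in HFD. Without Tlr13 it was 270 and 287 TPM in ND against 264 and 268 TPM in HFD, with the HFD values just below those of ND. These sums and shares are descriptions without a test.

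Co-receptors present ligands to TLR4 at the cell surface, and UNC93B1 is the chaperone that carries nucleic acid-sensing TLRs to endosomes. Ly96, which encodes the MD-2 protein that binds lipopolysaccharide together with TLR4 (chr1:16688051-16709611, plus strand), had 47.8 and 50 TPM in ND against 27.9 and 26.0 TPM in HFD. It was called lower, with a log2 fold change of -0.84, and all 4 values kept the diets apart. The ratio of Ly96 to Tlr4 was 1.55 and 1.43 in ND and 0.79 in each HFD sample. Cd14, which hands lipopolysaccharide to MD-2, was the most abundant member, at 2192 and 2171 TPM in ND against 1956 and 2432 TPM in HFD. The HFD values of Cd14 enclosed the ND values. Unc93b1 had 497.6 and 494.4 TPM in ND against 399.6 and 399.9 TPM in HFD, a difference of -0.31 on the log2 scale that passed the p threshold (adjusted p = 0.0138 in limma, 0.0824 with median-ratio scaling) but not the limit of 1.5-fold.

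Lbp, the lipopolysaccharide-binding protein of plasma, had the widest spread of the list. It had 13.8 and 15.4 TPM in ND against 31.7 and 73.8 TPM in HFD. Its log2 fold change of 1.67 ± 0.47 (SE, limma adjusted p = 0.0844) was not called although both HFD values lay above both ND values. Without HFD replicate 1 the value was 2.26 and without HFD replicate 2 it was 1.07, and it was called in each case (adjusted p = 0.0326 and 0.0396 in limma). HFD replicate 2, the higher sample for Lbp by 2.33-fold, was also 2.0-fold higher than HFD replicate 1 in the summed fibroblast markers, of which 4 of 6 were called higher and none was at 0. The same ratio was 2.03 for epididymal epithelium, 1.66 for T cell and 1.34 for monocyte markers, whose sums were lower in HFD than in ND. The part of these cells in the level of Lbp was not tested.

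Adaptors with a TIR domain link the receptors to the kinases. Myd88 (chr9:119335934-119341411, minus strand), the adaptor of most TLRs, had 214.6 and 222.7 TPM in ND against 147.8 and 152.9 TPM in HFD. The diets did not overlap, and the log2 fold change of -0.54 ± 0.04 (SE, limma adjusted p = 0.0103) passed the p threshold and stayed just under 1.5-fold, a limit it passed after quantile normalization (-0.69) and after rescaling without the 50 most abundant genes (-0.60). Its exons share 11.3% of their bases with Acaa1a on the opposite strand, and whether the counting used strand is not stated in the sources used here. Ticam2, which encodes TRAM, the bridge from internalized TLR4 to TRIF (chr18:46557291-46574533, minus strand), had 64.3 and 69.8 TPM in ND against 42.8 and 39.7 TPM in HFD. It was called lower with a log2 fold change of -0.69, and the call was lost without HFD replicate 1 or HFD replicate 2 (adjusted p = 0.0526 and 0.0510 in limma). Ticam2 shares 14.5% of its exon bases with Tmed7 on the same strand, and how such reads were counted is not stated in the sources used here. Ticam1, which encodes TRIF, had 40 and 38.8 TPM in ND against 46.0 and 43.1 TPM in HFD and was not called. The ratio of Ticam1 to Ticam2 was 0.62 and 0.56 in ND and 1.08 and 1.09 in HFD. Tirap, which brings MyD88 to surface receptors, was low at 2.9 to 3.6 TPM in the 4 samples.

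The IRAK kinases act directly after MyD88, and 0 of 4 was called by limma at either threshold. Irak2 came closest, with 24.2 and 24.3 TPM in ND against 29.4 and 33.5 TPM in HFD (unadjusted p = 0.0201 and adjusted p = 0.0640 in limma). Its log2 fold change of 0.36 ran from 0.27 to 0.45 with 1 sample left out. Irak3, which restrains the other IRAK proteins, had 11.9 and 12.4 TPM in ND against 10.7 and 10.2 TPM in HFD. Irak1 and Irak4 differed by -0.04 and -0.10 on the log2 scale, values that ran from -0.080 to -0.0097 and from -0.17 to -0.040 with 1 sample left out.

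TRAF proteins are ubiquitin ligases and scaffolds that carry the signal further. All 5 had a log2 fold change below 0, from -0.49 for Traf1 to -0.05 for Traf6, and none was called. The sign of Traf6 was not stable, since it was 0.02 without ND replicate 2 and without HFD replicate 2. Traf3 (chr12:111166370-111267153, plus strand), a restraint on the NF-kB-inducing kinase, was one of the lowest members, at 3.9 and 4.1 TPM in ND against 3.3 and 3.5 TPM in HFD. Both HFD values were below both ND values, but the log2 fold change of -0.18 ± 0.09 (SE, limma adjusted p = 0.235) did not pass the test. Traf5 had 54.3 and 53.8 TPM in ND against 44.8 and 44.3 TPM in HFD, past the p threshold (adjusted p = 0.0312 in limma) at a log2 fold change of -0.27. The adjusted p of Traf5 was 0.0826 with median-ratio scaling. Traf1, itself a known NF-kB target, had 8.4 and 8.9 TPM in ND against 5.0 and 6.9 TPM in HFD, and was called when HFD replicate 2 was left out (-0.69, adjusted p = 0.0388 in limma), while without HFD replicate 1 it was -0.29 (adjusted p = 0.1003 in limma). Traf2 lay between 4.7 and 6.6 TPM and Traf6 between 14.6 and 16.7 TPM.

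Of the kinases and factors after the TRAF proteins, none was called. Tbk1, which phosphorylates IRF3 on the interferon arm, had 35.5 and 36.8 TPM in ND against 45.6 and 45.7 TPM in HFD. This difference of 0.33 on the log2 scale was larger than the spread within either diet (adjusted p = 0.0272 in limma) and under 1.5-fold, and its adjusted p was 0.0864 with median-ratio scaling and 0.124 after quantile normalization. Irf3 had 27.5 and 28.1 TPM in ND against 24.5 and 24.2 TPM in HFD (adjusted p = 0.0896 in limma). Irf5, a factor linked to inflammatory macrophages, lay between 55.6 and 57.1 TPM in all 4 samples, Map3k7, the gene of TAK1, between 11.2 and 13.0 TPM, and its partner Tab2 between 29.3 and 35.1 TPM.

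NOD1 and NOD2 sense fragments of bacterial cell walls in the cytosol and signal through RIPK2 to the same IKK complex. Nod1 had 12.2 and 12.6 TPM in ND against 7.3 and 8.7 TPM in HFD, a log2 fold change of -0.58 with an adjusted p of 0.0417 in limma, which is just under the fold limit. Nod1 was called without HFD replicate 2 (-0.69), with 0.1 in place of 1 added to the TPM (-0.63) and after rescaling without the 50 most abundant genes (-0.65). Its adjusted p was above the threshold in limma with no filter (0.0729), with median-ratio scaling (0.0706) and after quantile normalization (0.0920), and leaving out HFD replicate 1 gave -0.47. Nod2 and Ripk2 were not called, at 3.0 to 3.9 TPM and at 6.7 to 8.4 TPM.

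The IKK complex consists of the kinases encoded by Chuk and Ikbkb and the scaffold encoded by Ikbkg. Ikbkb had 25.6 and 27.2 TPM in ND against 20.8 and 21.5 TPM in HFD (-0.31 on the log2 scale with a limma adjusted p of 0.0493, which was 0.0641 with no filter and 0.0886 with median-ratio scaling), while Chuk lay between 13.5 and 14.7 TPM and Ikbkg between 1.3 and 1.6 TPM. No gene of the complex was called. Ikbkg had the lowest mean over the 4 samples, at approximately 150 to 197 reads per sample, although Tlr5 and Tlr12 were lower than Ikbkg in HFD.

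NF-kB is a dimer of 5 possible subunits, and all 5 genes had a log2 fold change below 0 without being called. Rela (chr19:5637483-5648130, plus strand), the gene of the p65 subunit, had 96.0 and 97.1 TPM in ND against 69.6 and 67.0 TPM in HFD. The diets were well apart, with a log2 fold change of -0.49 ± 0.05 (SE) and an adjusted p of 0.0118 in limma, and the change reached 1.5-fold only after quantile normalization (-0.60). Rel, the gene of c-Rel, was the most abundant subunit at 200.1 and 237.9 TPM in ND against 219.8 and 195.0 TPM in HFD, and the diets overlapped. The log2 fold change of Rel was -0.08, and it was 0.05 without ND replicate 2 and 0.01 without HFD replicate 2. Nfkb1 and Nfkb2, which encode the precursors of the p50 and p52 subunits, had log2 fold changes of -0.22 and -0.31, and Relb, which pairs with p52 in the non-canonical pathway, had -0.24. Rela made 22.3% and 20.5% of the summed TPM of the 5 subunits in ND and 17.6% in each HFD sample.

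**Figure D4:**
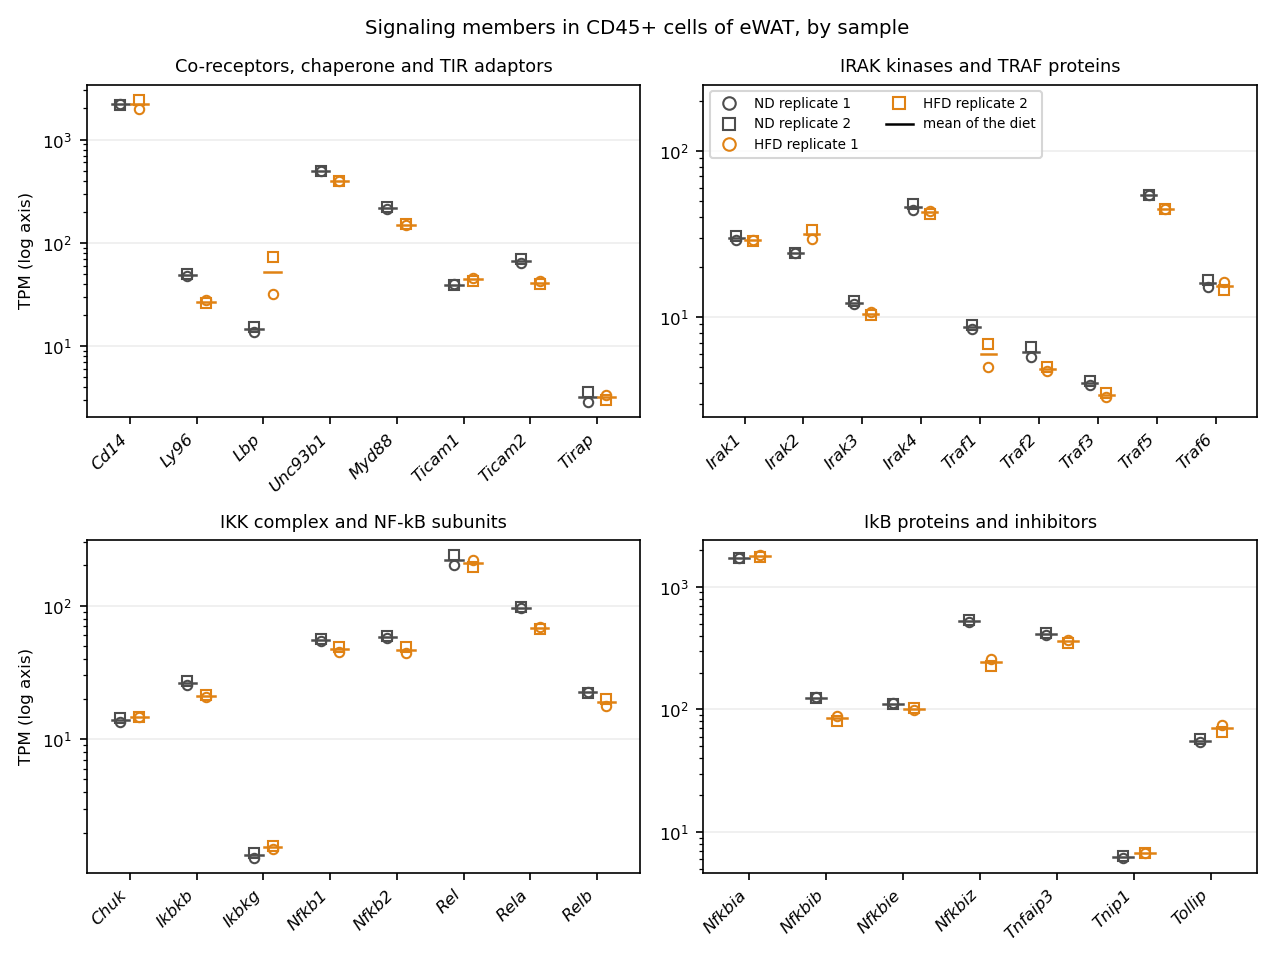
TPM (log axes) of co-receptors and adaptors, IRAK and TRAF genes, IKK and NF-kB subunits, and IkB proteins and other inhibitors in each sample, with circles for replicate 1, squares for replicate 2 and short lines for the mean of each diet. Nfkbiz, Ly96 and Ticam2 are lower in HFD by more than the spread within a diet, and the HFD values of Lbp lie 2.33-fold apart.

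IkB proteins hold NF-kB in the cytosol or, for the nuclear member IkB-zeta, change what it does on chromatin. Nfkbiz, the gene of IkB-zeta (chr16:55811375-55838899, minus strand), had 519.9 and 534.3 TPM in ND against 259.4 and 224.3 TPM in HFD. It was called lower with a log2 fold change of -1.12, and its HFD values were below its ND values by 2.18-fold in the means. Nfkbia, the gene of IkB-alpha and a standard early NF-kB target, had 1725 and 1708 TPM in ND against 1804 and 1741 TPM in HFD, a log2 fold change of 0.05 that became -0.01 after rescaling without the 50 most abundant genes. Nfkbia was therefore 3.32 and 3.20 times as abundant as Nfkbiz in ND and 6.96 and 7.76 times in HFD. Nfkbib, the gene of IkB-beta, had 127.0 and 122.9 TPM in ND against 88.9 and 81.2 TPM in HFD (-0.55 on the log2 scale with a limma adjusted p of 0.0178), under the fold limit. It was called after quantile normalization (-0.66), after rescaling without the 50 most abundant genes (-0.61) and without HFD replicate 1 (-0.62). Its exons share 14.5% of their bases with Ccer2 on the opposite strand.

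The other inhibitors were not called. Tnfaip3, the gene of the deubiquitinase A20, had 402.6 and 416.2 TPM in ND against 365.7 and 350.6 TPM in HFD (adjusted p = 0.0567 in limma). Tollip, which restrains IRAK1, had 54.4 and 56.9 TPM in ND against 75.1 and 65.7 TPM in HFD (adjusted p = 0.0762 in limma). Nfkbie lay between 99.8 and 111.8 TPM and Tnip1, a partner of A20, between 6.2 and 6.8 TPM.

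Across the 10 called members, each kept its direction when any 1 sample was left out. The calls themselves need both ND samples. With ND replicate 1 or ND replicate 2 left out, 0 of 52 members and 0 of all genes tested were called by limma, with smallest adjusted p-values of 0.167 and 0.161, while 16 members had an unadjusted p under 0.05 in each case. Without HFD replicate 1, 8 of the 10 calls were kept, and without HFD replicate 2, 9 were kept. With 2 samples per diet the smallest p of an exact two-sided permutation test is 0.333, so no single gene was tested that way.

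NF-kB is known to bind the kappaB consensus in the promoters of its own inhibitors and subunits. The RefSeq promoter windows for GRCm38.p6, which span 250 bases before the start site to 50 bases after it, covered 40 of the 52 members, and 10 of these 40 (25%) held the kappaB consensus on either strand, overlapping matches counted once per gene. Among all 23922 genes with a window, 1262 (5.3%) held it. A stricter form of the consensus was in 7 of the 40 members (17.5%) and in 225 genes (0.9%). By layer, 6 of the 9 subunit and inhibitor genes with a window held a match, and 4 of the 31 other members with a window did. Of the 10 called members 7 had a window, and 0 of them held a match, which says only that these letters are not in this stretch. Nfkbiz, the one called inhibitor, had no window in the table. Shown here are 4 windows of the subunit and inhibitor layers, picked after their values were known because the match lies outside annotated exons. They are given 5′ to 3′ on the strand of the gene, with the match, or overlapping matches, in capitals.
Nfkbia, chr12:55492652-55492691, minus strand: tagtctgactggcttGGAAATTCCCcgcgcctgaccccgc
Nfkbie, chr17:45555579-45555618, plus strand: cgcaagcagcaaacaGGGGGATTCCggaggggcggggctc
Tnip1, chr11:54962972-54963013, minus strand: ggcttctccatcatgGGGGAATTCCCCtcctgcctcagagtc
Rel, chr11:23771036-23771076, minus strand: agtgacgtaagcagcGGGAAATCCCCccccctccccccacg

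None of these 4 genes was called. Their log2 fold changes between HFD and ND were 0.05 for Nfkbia, -0.14 for Nfkbie, 0.10 for Tnip1 and -0.08 for Rel. The first capital letter lies 29 bases before the start site in Nfkbia, 106 in Nfkbie, 58 in Tnip1 and 92 in Rel.

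Another 70 genes of the pathway and its targets, in 4 lists, were read from the same limma fit. These lists were chosen with earlier results of these data known, so their shares beside those of all genes are descriptions only. In the list of receptor trafficking and accessory proteins, 4 of the 11 genes tested (36.4%) were called higher and 1 (9.09%) lower, beside 8.08% and 10.3% of all genes, with a median log2 fold change of 0.14. Sarm1, the adaptor that blocks TRIF, was under the filter at 0.2 TPM in both ND samples and 0.1 TPM in both HFD samples. The largest increases were those of Cd36, a fatty acid and lipoprotein receptor that cooperates with TLR2 (131.3 and 137.1 TPM in ND, 308.4 and 314.0 TPM in HFD), of Slc15a3, an endolysosomal transporter (185.5 and 189.5 against 435.4 and 416.5 TPM), and of Cd180, a TLR4-like receptor (74.7 and 81.9 against 157.3 and 135.6 TPM). Their log2 fold changes were 1.21, 1.18 and 0.89. Sigirr, an inhibitory receptor of the same superfamily, fell from 4.7 and 5.0 TPM to 1.7 and 1.5 TPM.

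In the list of kinases, ubiquitin ligases and signal relays, 1 of 20 genes (5%) was called higher and 4 (20%) lower, beside the same 8.08% and 10.3% of all genes, with a median of -0.24. Ikbke, an IKK-related kinase and close relative of Tbk1, rose from 9.5 and 10 TPM to 18.9 and 19.1 TPM. The largest decreases were in Map3k14, the NF-kB-inducing kinase of the non-canonical pathway (94.8 and 93.3 TPM in ND, 45.2 and 48.1 TPM in HFD), Map3k8, the kinase that links TLRs to ERK (88.1 and 96.7 against 50.5 and 43.7 TPM), and Birc3, a ubiquitin ligase that controls Map3k14 (59.8 and 62.1 against 29.0 and 32.9 TPM). In each of these genes both HFD values were below both ND values.

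Among 16 further inhibitors, 1 (6.25%) was called higher and 4 (25%) lower, where all genes had 8.08% and 10.3%, with a median of -0.19. Tnip3, a partner of A20, had 93.4 and 99.7 TPM in ND against 201.1 and 184.8 TPM in HFD, a log2 fold change of 0.99, and it went opposite to Nfkbiz. Usp18, an interferon-induced protease (24.7 and 23.7 against 7.8 and 7.7 TPM), Socs3, an inhibitor of cytokine receptors (615.8 and 613.6 against 332.4 and 354.1 TPM), and Nfkbid, another nuclear IkB protein (146.2 and 145.6 against 85.6 and 76.9 TPM), fell by 1.53, 0.84 and 0.84 on the log2 scale.

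Of 22 NF-kB target genes, 4 (18.2%) were called higher and 5 (22.7%) lower, against 8.08% and 10.3% of all genes, and the median log2 fold change was 0.01. These lists are small, and their shares were not tested against those of all genes. Cxcl1, a chemokine for neutrophils, had 753.5 and 752.6 TPM in ND against 1793 and 1869 TPM in HFD, Il1rn, the interleukin-1 receptor antagonist, 49.4 and 51.6 against 103.0 and 110.1 TPM, and Il10, an anti-inflammatory cytokine, 428.1 and 445.2 against 778.2 and 882.1 TPM. The called decreases were chemokines, led by Ccl5 (431.8 and 436.2 against 72.1 and 108.8 TPM), Cxcl10 (226.3 and 234.8 against 92.2 and 66.6 TPM) and Ccl2 (2132 and 2145 against 935.4 and 825.0 TPM). T cells and NK cells are known sources of Ccl5, and their markers summed to 154 and 170 TPM and to 188 and 193 TPM in ND and to 22.5 and 37.3 TPM and 39.4 and 31.5 TPM in HFD, with all 5 and all 6 tested genes called lower and none at 0. Their part in the level of Ccl5 was not tested. Tnf, with 155.5 and 164.6 TPM in ND against 387.8 and 247.4 TPM in HFD, was not called (0.95 on the log2 scale with a limma adjusted p of 0.0770).

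**Figure D5:**
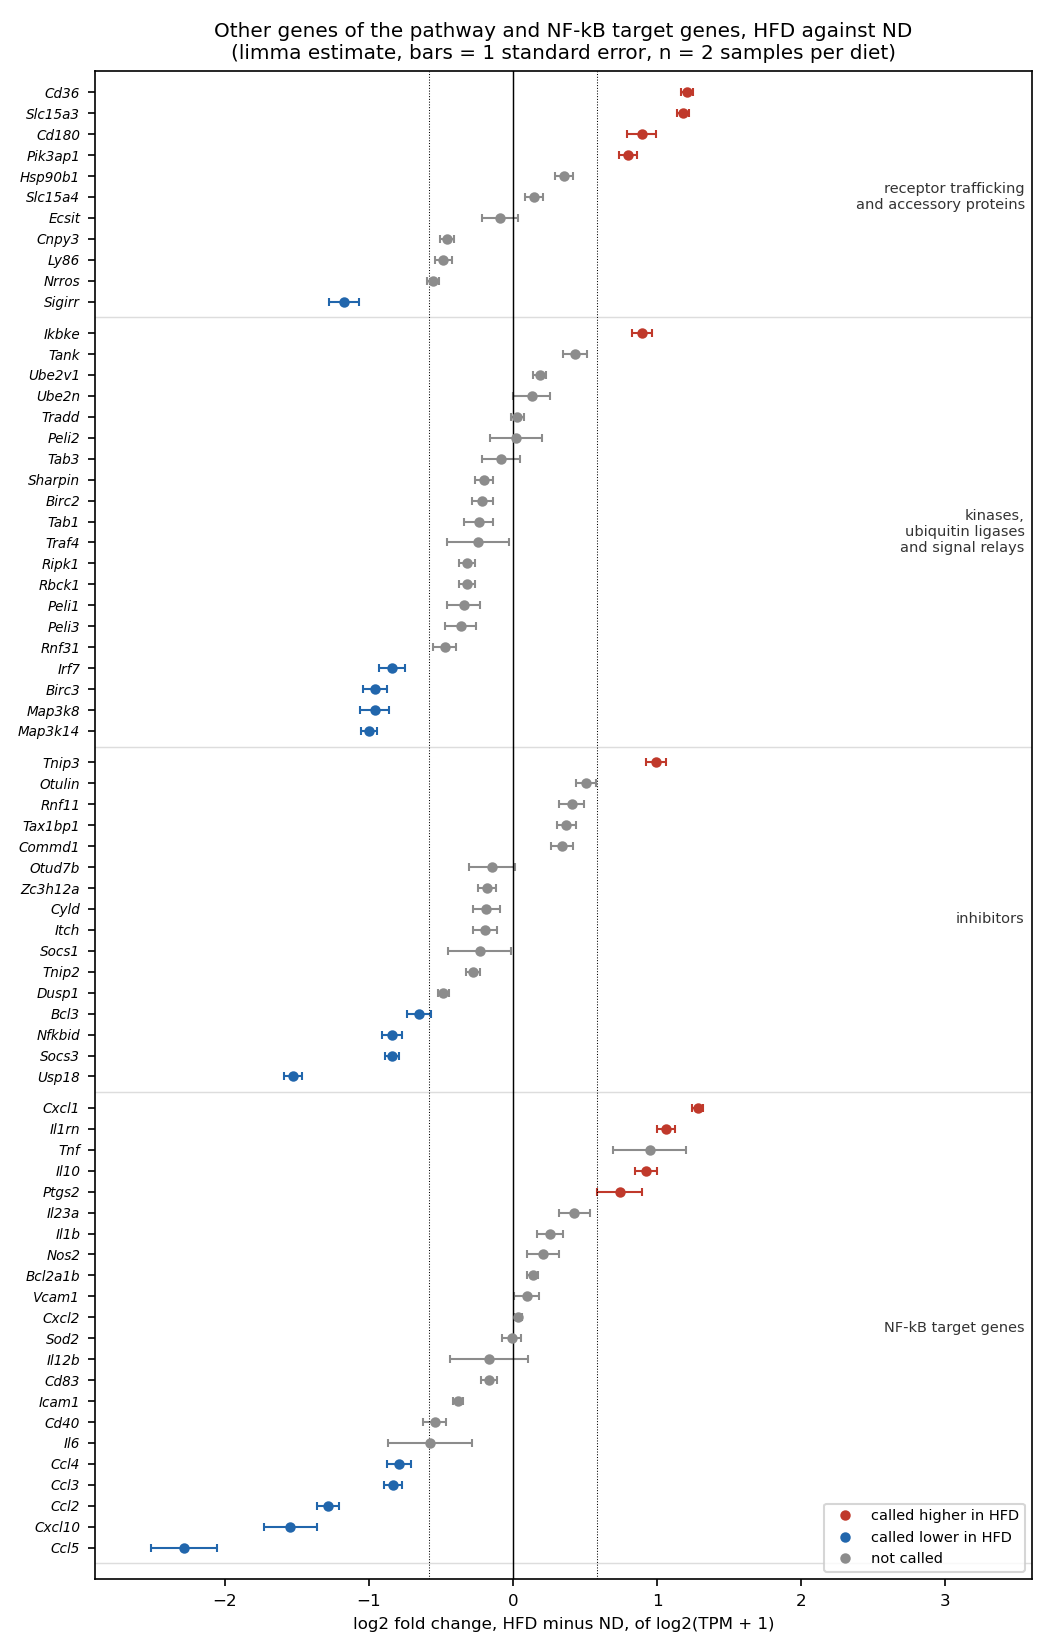
Log2 fold change between HFD and ND of the 69 tested genes of 4 further lists of the pathway and its targets, on the log2(TPM + 1) scale, with bars of 1 standard error from limma (n = 2 samples per diet) and dotted lines at 1.5-fold. Called genes lie on both sides in every list, from Ccl5 at -2.28 to Cxcl1 at 1.28.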

How the data were processed

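RNA-seq was measured in 4 samples of CD45+ cells from eWAT, 2 from ND and 2 from HFD mice. The authors prepared stranded mRNA libraries, trimmed reads with Trim Galore 0.4.2 and cutadapt 1.9.1, aligned them to mm10 with STAR 2.6.1e, removed duplicate reads, counted reads per gene with featureCounts 1.6.2 and deposited TPM, the counts divided by gene length and scaled to the same total in each sample. TPM are shares of a sample's RNA, so a gene can fall because others rose, and removing duplicates can lower abundant transcripts. The gene annotation and the strand setting of the counting are not given in the sources used here.

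Of 35869 genes, the 16849 that reached 1 TPM in 2 or more samples were compared as log2(TPM + 1) with limma 3.58.1 (lmFit, eBayes with a variance trend) in R 4.3.3, with Benjamini-Hochberg adjustment over all genes tested. A call needed an adjusted p under 0.05 and 1.5-fold. Models for read counts were not applied. The fit was tested on simulated data, where it found a minority of the changed genes when few genes changed and most of them when about as many changed as were called here. The limit on how many had to be found was revised after the first of these simulations missed it. A gene that was not called may still differ.

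The members, layers and other lists were chosen with earlier results of these data known. Values in every sample are given for called members, for members whose protein the study measured (Tlr4, Myd88, Rela, Traf3) and for those near a threshold, test values for the 3 largest changes in each direction and for those proteins, and for the other lists the 3 largest called changes in each direction. Test values for further members, and the sums, shares and ratios, were added after the values were seen. Depth was estimated from the smallest steps of 198 to 222 short genes per sample (up to 8 reads, within 0.05 TPM), with 0.0606 to 0.0712 TPM for 1 read per kb, and read numbers use GENCODE vM21 lengths (26704 genes matched by name). Positions are mm10 from GENCODE vM21. Promoter windows are from RefSeq (GRCm38.p6). Marker genes were summed per sample, and Trbc2, one of the T cell markers, was not used here. The alternatives used 0.1 or 5 as pseudocount, left out the filter or asked for an average of 5 TPM, left out the variance trend, added a replicate block, changed the scaling (median-ratio, quantile, or without the 50 most abundant genes) and covered other fold limits, a stricter kappaB consensus, and each sample left out. Python 3.11.15, pandas 2.3.3 and matplotlib 3.10.9 were used for tables and figures.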

Additional observations from a re-analysis of the deposited data

How the results depend on the processing

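Each of the 10 called members kept its direction under every alternative in which it was tested. With an average TPM of at least 5 as the filter, 2 of them (Tlr5 and Tlr12) were not tested. Of the 10 calls, 10 were kept with a pseudocount of 0.1, without the variance trend and with median-ratio scaling, 9 with no filter, quantile normalization or rescaling, each without Tlr1, and 8 with a pseudocount of 5, without Tlr1 and Tlr12. The count of all genes called was 3097, against 2015 when 5 was the pseudocount, 1602 at 2-fold and from 0 to 4232 with 1 sample left out. With no fold limit 14 members were lower. With 1 sample left out, from 0 to 4 members were higher and from 0 to 8 lower, and each 0 came from leaving out an ND sample, where the cause was not tested.

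The labels give both diets the numbers 1 and 2, but the deviations from the diet means of same-numbered samples had a correlation of -0.015 across genes, and no pairing was assumed. With a replicate block 812 genes were called, 1 member was higher (Tlr13) and 2 were lower (Tlr5 and Nfkbiz), and with no fold limit the members past the p threshold were 3 in place of 18. In the further lists the block left 2 higher and 0 lower for trafficking, 0 and 2 for relays, 0 and 2 for inhibitors, and 3 lower for targets.

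Scaling moved the median of all genes by less than 0.1. The median log2 fold changes as reported were 0.052 for cell-surface TLRs, -0.096 for endosomal TLRs, -0.16 for co-receptors, -0.28 for adaptors, -0.074 for IRAK kinases, -0.27 for TRAF proteins, -0.0076 for TAK1, TBK1 and IRF genes, -0.21 for NOD genes, 0.067 for the IKK complex, -0.24 for NF-kB subunits, -0.14 for inhibitors, 0.14 for trafficking, -0.24 for relays, -0.19 for further inhibitors and 0.014 for targets. The medians of cell-surface TLRs and the IKK complex were thus below 0 after quantile normalization, and that of targets was below 0 under each of the 3 scalings. Quantile normalization gave medians of -0.067 for cell-surface TLRs, -0.35 for adaptors, -0.19 for IRAK kinases, -0.14 for TAK1, TBK1 and IRF genes, -0.026 for the IKK complex, -0.35 for NF-kB subunits, -0.24 for inhibitors, 0.067 for trafficking and -0.26 for further inhibitors. Rescaling without the 50 most abundant genes gave -0.13 for IRAK kinases, -0.068 for TAK1, TBK1 and IRF genes, 0.0099 for the IKK complex and -0.20 for inhibitors, and median-ratio scaling -0.039 for TAK1, TBK1 and IRF genes. Each of the 3 scalings gave 2 trafficking genes called lower. A pseudocount of 5 gave -0.18 for TRAF proteins, -0.11 for NOD genes and -0.17 for relays, with 0 trafficking genes lower. The filter on a mean of 5 left fewer genes and gave -0.54 for adaptors, -0.12 for the IKK complex, 0.35 for trafficking with 0 lower, and -0.087 for targets, and no filter gave 0.027 for trafficking. The cause of the other shifts was not tested. With 1 sample left out, medians ran from -0.035 to 0.14 for cell-surface TLRs, -0.35 to -0.20 for adaptors, -0.33 to -0.16 for NF-kB subunits, -0.32 to -0.19 for relays, -0.12 to -0.025 for IRAK kinases, -0.027 to 0.011 for TAK1, TBK1 and IRF genes, 0.023 to 0.11 for the IKK complex, -0.015 to 0.093 for targets, -0.15 to -0.037 for endosomal TLRs and -0.23 to -0.076 for co-receptors, and calls from 0 to 4 higher and 0 to 1 lower for trafficking, 0 to 1 and 0 to 4 for relays and for further inhibitors, and 0 to 4 and 0 to 6 for targets.

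Genes that turned direction were not called. Quantile normalization gave -0.067 for Tlr4, 0.0071 for Cd14 and -0.026 for Chuk, and rescaling gave -0.0072 for Tlr4 and -0.015 for Nfkbia. With 1 sample left out, values ran from -0.078 to 0.065 for Tlr2, -0.035 to 0.14 for Tlr4, -0.14 to 0.022 for Tlr3, -0.16 to 0.16 for Cd14, -0.13 to 0.11 for Tirap, -0.12 to 0.021 for Traf6, -0.012 to 0.15 for Map3k7, -0.027 to 0.011 for Irf5 and -0.20 to 0.049 for Rel. Depth limits the lowest members, above all Tlr12, and a single diet contrast with 2 samples each limits the rest.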
